A study of Homo sapiens with 2 samples.

Results

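The genes described here are the receptors and ligands of the 4 classical axon guidance systems: Eph receptors and ephrins, semaphorins with their plexin and neuropilin receptors, Slits with their Robo receptors, and netrins with DCC and the UNC5 receptors. They were chosen by gene symbol alone, with hyphenated symbols left out, and numbered 69 of the 53737 genes in the tables. RNA was sequenced from the cell line SK-ES-1, which was derived from an Ewing sarcoma and is labelled as wild type and as bone. Slow-cycling cells, or SCCs, gave 1 library, and cells that do not cycle slowly, labelled non-SCCs, gave the other. The labels give neither a treatment nor a time for either library, and how SCCs were separated from the rest is not given in the sources used here. Levels are in per-million units, computed from the log2 values that the authors deposited, and are read as levels per transcript length, although the unit is not stated. With 1 library per group there was no replicate, so the values compare 2 libraries and no test was made.

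Guidance molecules steer growing axons and migrating cells by attraction or repulsion. A ligand, secreted or held on a neighbouring cell, binds a receptor that acts on the actin cytoskeleton. Eph receptors are tyrosine kinases whose ephrin ligands are themselves membrane-bound, so both partners can signal. Plexins bind semaphorins, with neuropilins as co-receptors for most secreted semaphorins. Robo receptors bind Slits and mostly mediate repulsion. DCC mediates attraction to netrin and UNC5 receptors mediate repulsion from it, and both kinds are known as dependence receptors, which can promote cell death when the ligand is missing. The same genes are used outside the nervous system, in vessels, bone and tumours.

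In the SCC library most guidance genes that were expressed were slightly higher, and 4 of them differed by at least 1.5-fold. EPHB2, SEMA6B and ROBO2 were higher in the SCC library and EPHB1 was lower. The most abundant genes of the set, EFNB1, PLXNB2 and EPHB4, differed little. Of the 69 genes, 41 passed a level filter, set at 1 per-million unit or more in either library, 6 were above 0 but under it, and 22 were listed at 0 in both libraries. Among the 41 genes, 31 had a log2 ratio above 0 and 10 a log2 ratio below 0, where the ratio is log2(level + 1) in the SCC library minus that in the non-SCC library. Their median log2 ratio was 0.13, beside 0.03 for all 13444 genes that passed the filter, of which 56.2% had a ratio above 0. The 3 genes past 1.5-fold upward and the 1 gene past it downward stand beside 5.38% and 1.41% of all genes passing the filter, which are close to the shares of the guidance genes (7.32% and 2.44%). EPHB2 (0.806) and SEMA6B (0.867) were under the filter in the non-SCC library. Both passed it only through the library where they were higher. The thresholds apply to the ratio with 1 added to each level, so low genes can be further apart in plain levels. At a smaller threshold of 0.32 on the log2 scale, 12 guidance genes were higher and 1 was lower, beside backgrounds of 13.5% and 4.99%. In libraries of many cells, a lower level in every cell and fewer cells that express the gene cannot be told apart.

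**Figure D1:**
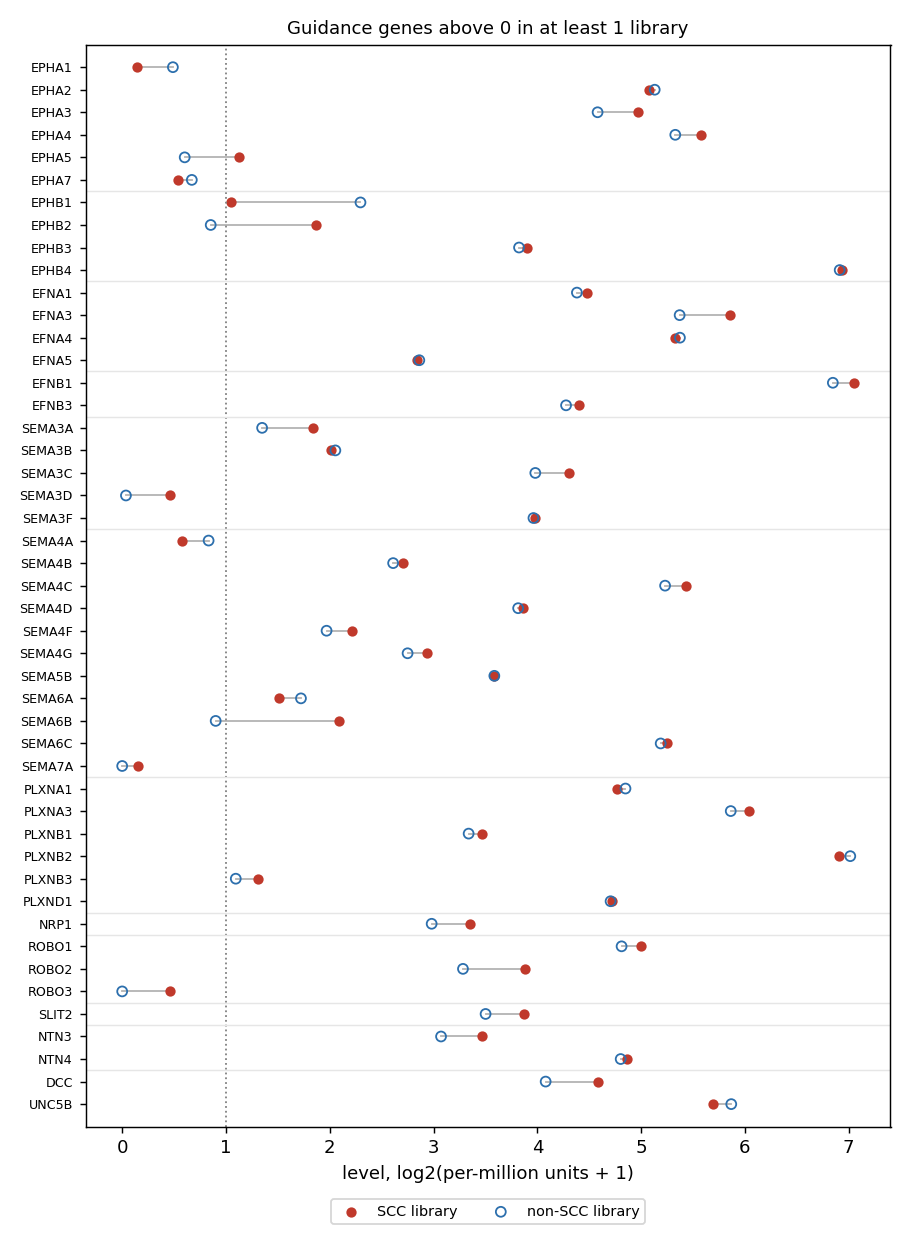
Level of each of the 47 guidance genes above 0 in at least 1 library, as log2(per-million units + 1) on the horizontal axis, with filled points for the SCC and open points for the non-SCC library; the dotted line marks the level filter of 1 per-million unit. Most pairs of points lie close together, and the widest gaps are those of EPHB1, SEMA6B and EPHB2, all at low levels.

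The background depends on the level of a gene. Among all genes with a mean level under 2 per-million units, 32.1% were higher in the SCC library by 1.5-fold or more, and their median log2 ratio was 0.32. Among genes between 2 and 4 per-million units, 14.2% were higher and 4.28% lower by that much. Between 8 and 16 per-million units the share higher was 3.17%. EPHB2, with a mean level of 1.72, lies in the lowest of these ranges, SEMA6B, at 2.05, and EPHB1, at 2.49, lie in the next, and ROBO2, at 11.2, lies in the last. A higher level by 1.5-fold or more was thus common among genes as low as EPHB2, while the difference of EPHB1 went in the less common direction.

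**Figure D2:**
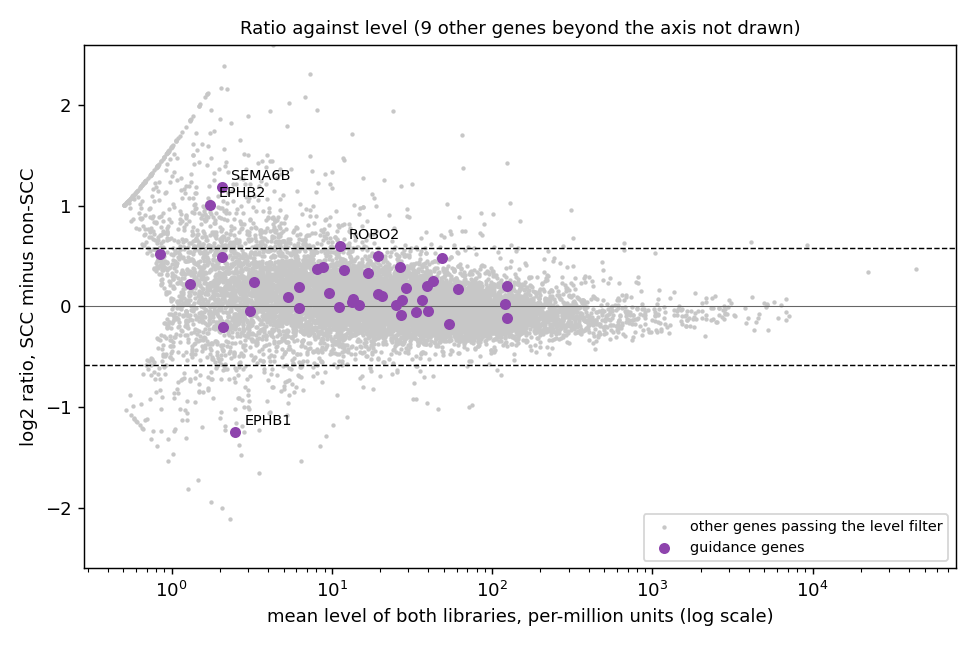
Log2 ratio, SCC minus non-SCC, against the mean level of both libraries in per-million units on a log axis, for the 41 guidance genes passing the level filter (purple) and all other genes passing it (grey); dashed lines mark 1.5-fold in either direction. The grey cloud widens and tilts upward at low levels, where EPHB2, SEMA6B and EPHB1 lie, and ROBO2 sits just above the upper line.

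The sequences around the annotated starts of 3 of these 4 genes are shown first, since EPHB1 and EPHB2 are paralogues with opposite ratios. EFNB2, a ligand listed at 0 in both libraries and chosen after its value was seen, is shown as a contrast. Each run holds 250 bases before and 50 bases from the start, on the strand of the gene, from RefSeq on GRCh38.p14. Capitals mark CpG dinucleotides, the sites of DNA methylation. Windows were found for 59 of the 69 genes, SEMA6B not among them. EPHB1 lies on the plus strand at chr3:134795010-134795309, EPHB2 on the plus strand at chr1:22710588-22710887, ROBO2 on the plus strand at chr3:76310630-76310929, and EFNB2 on the minus strand at chr13:106535613-106535912. The ROBO2 window belongs to a start inside the annotated gene, which begins further upstream.
EPHB1: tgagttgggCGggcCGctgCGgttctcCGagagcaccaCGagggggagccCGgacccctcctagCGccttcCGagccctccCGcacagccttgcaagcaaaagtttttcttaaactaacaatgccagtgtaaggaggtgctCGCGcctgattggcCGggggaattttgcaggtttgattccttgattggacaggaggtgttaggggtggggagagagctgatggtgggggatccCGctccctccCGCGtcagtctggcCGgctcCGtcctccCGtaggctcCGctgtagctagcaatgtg
EPHB2: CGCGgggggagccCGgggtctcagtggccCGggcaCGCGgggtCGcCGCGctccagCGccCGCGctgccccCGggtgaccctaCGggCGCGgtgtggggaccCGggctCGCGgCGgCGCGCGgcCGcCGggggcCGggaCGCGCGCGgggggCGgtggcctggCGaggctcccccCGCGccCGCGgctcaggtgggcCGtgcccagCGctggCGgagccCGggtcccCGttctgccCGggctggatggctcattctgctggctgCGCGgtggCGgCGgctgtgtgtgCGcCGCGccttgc
ROBO2: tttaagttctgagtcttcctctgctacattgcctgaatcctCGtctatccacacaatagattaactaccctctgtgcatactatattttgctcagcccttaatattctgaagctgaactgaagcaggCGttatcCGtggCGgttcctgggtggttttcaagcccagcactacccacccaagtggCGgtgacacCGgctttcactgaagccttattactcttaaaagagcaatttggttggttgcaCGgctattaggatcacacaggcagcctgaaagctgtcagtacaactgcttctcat
EFNB2: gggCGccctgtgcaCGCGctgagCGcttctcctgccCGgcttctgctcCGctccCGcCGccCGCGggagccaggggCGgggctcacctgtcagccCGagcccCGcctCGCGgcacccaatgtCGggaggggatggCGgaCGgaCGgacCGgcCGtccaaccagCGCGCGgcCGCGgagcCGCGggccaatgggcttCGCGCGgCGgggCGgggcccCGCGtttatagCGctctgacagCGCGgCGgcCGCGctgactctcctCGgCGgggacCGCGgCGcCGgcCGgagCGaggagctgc

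The EPHB2 window holds 49 CpG sites and is 83.0% G and C, while the EPHB1 window holds 19 and is 61.3% G and C. ROBO2 has 7 CpG sites in a window that is 46.7% G and C. The EFNB2 window, of a gene listed at 0, holds as many CpG sites as that of EPHB2. None of the 4 windows holds any of 4 motifs searched on both strands: ACGTG, the core of the hypoxia response element, which is also contained in the E-box CACGTG, GCGTGGGCG, bound by EGR factors, TGACTCA, bound by AP-1, and GGAAGGAA, a short GGAA repeat. Over all 59 windows, 9 (15.3%) held ACGTG, 1 (1.69%) held GCGTGGGCG, none held TGACTCA and 4 (6.78%) held GGAAGGAA. Among 15464 protein-coding genes with a window, the shares were 23.8%, 1.10%, 3.67% and 3.59%, in the same order.

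EPHB receptors bind mainly the transmembrane EFNB ephrins. EPHB1 (chr3:134795260-135260467) was at 1.07 per-million units in the SCC and 3.91 in the non-SCC library, a log2 ratio of -1.25. Of all genes passing the filter, 0.141% had a log2 ratio at least as low. EPHB2 (chr1:22710838-22921500) was at 2.64 and 0.806, a log2 ratio of 1.01, which 1.86% of those genes reached or exceeded. Both shares are over genes of all levels. In the range of mean level that holds EPHB1, 4.28% of genes were at least 1.5-fold lower. In that of EPHB2, 32.1% were at least 1.5-fold higher. The gene with the higher level of this pair was thus EPHB2 in the SCC library and EPHB1 in the other. Both were minor members beside EPHB4, the receptor of vessels and of many epithelial tumours, at 121 and 120 per-million units, a log2 ratio of 0.02. EPHB3 was at 13.9 and 13.2. EPHB4 held 87.3% and 87.0% of the summed EPHB level, and the sum itself was 139 and 137 per-million units. EPHB6, a member without kinase activity, was listed at 0 in both libraries.

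EPHA receptors bind mainly the GPI-anchored EFNA ephrins. EPHA4, which also binds ephrins of the B class, was the most abundant at 46.8 and 39.2 per-million units, a log2 ratio of 0.25. EPHA3 was at 30.3 and 22.9, a log2 ratio of 0.39. EPHA2, a receptor often abundant in tumours, was at 32.7 and 34.0, a log2 ratio of -0.06. The 3 receptors had levels of the same order, and EPHA3 had the largest ratio among them. EPHA5 passed the filter in the SCC library alone, at 1.18 and 0.518, a plain fold of 2.27. Its log2 ratio, with 1 added to each level, was 0.52, just under 1.5-fold. EPHA1 (0.104 and 0.403) and EPHA7 (0.451 and 0.592) stayed under the filter, both lower in the SCC library, and EPHA6, EPHA8 and EPHA10 were listed at 0. The summed EPHA level was 112 per-million units in the SCC and 97.7 in the non-SCC library.

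The ephrins were led by EFNB1, at 132 and 114 per-million units, a log2 ratio of 0.20, and the most abundant of all 69 genes in the SCC library. EFNB3 was at 20.1 and 18.4, a log2 ratio of 0.12. EFNB2, the best known ligand of EPHB4, was listed at 0 in both libraries, so the most abundant Eph receptor stood beside a ligand that was listed at 0. Among the A class, EFNA3 differed most, at 56.8 and 40.4 per-million units, a log2 ratio of 0.48. The A-class ligands EFNA4 (39.3 and 40.5), EFNA1 (21.3 and 19.8) and EFNA5 (6.19 and 6.28) had log2 ratios between -0.04 and 0.10, and EFNA2 was listed at 0. EFNA4 and EFNA3 had nearly the same level in the non-SCC library, and only EFNA3 was higher in the other. The ephrins together summed to 275 and 240 per-million units, and the Eph receptors to 251 and 235.

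**Figure D3:**
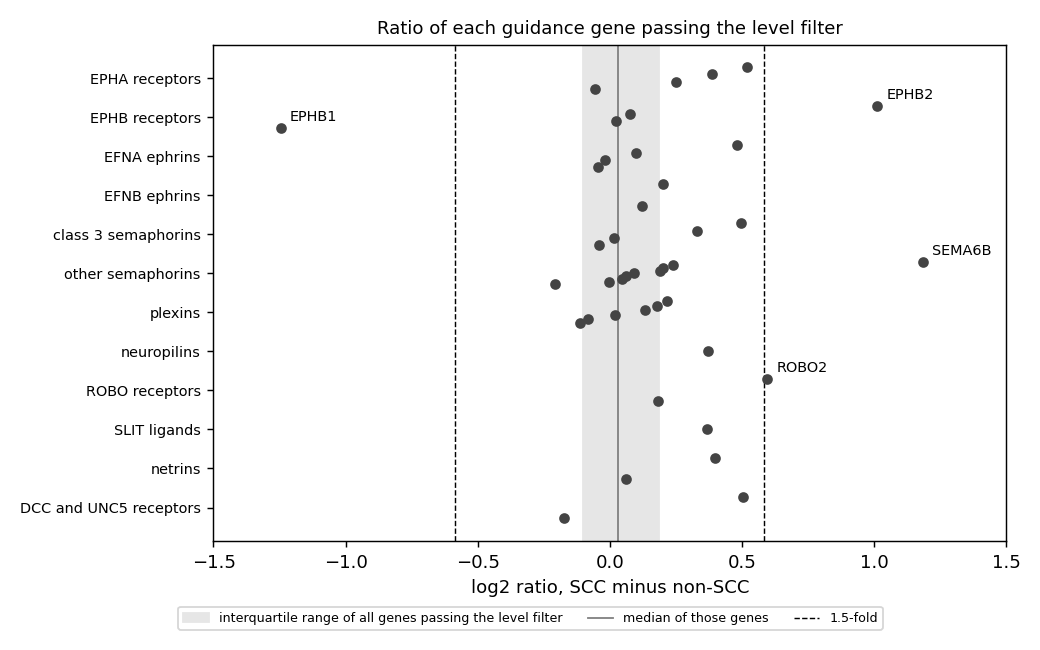
Log2 ratio, SCC minus non-SCC, of each of the 41 guidance genes passing the level filter, by family; grey shading spans the interquartile range of all 13444 genes passing the filter, the solid line is their median of 0.03, and dashed lines mark 1.5-fold. EPHB1 at -1.25 is alone on the left, EPHB2, SEMA6B and ROBO2 lie beyond the right line, and the 6 points of the plexins stay near the shading.

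Semaphorins were the largest family, with 20 genes, of which 13 passed the filter and 10 of these had a ratio above 0. Class 3 semaphorins are secreted. SEMA3C was the most abundant of the class at 18.8 and 14.8 per-million units, a log2 ratio of 0.33. SEMA3F was at 14.8 and 14.6 and SEMA3B at 3.04 and 3.15, log2 ratios of 0.02 and -0.04. SEMA3A, the repellent of sensory axons, was at 2.59 and 1.55, a log2 ratio of 0.49. So SEMA3A and SEMA3C were higher in the SCC library while SEMA3B and SEMA3F were nearly equal. SEMA3D was at 0.374 and 0.0254, under the filter, and SEMA3E and SEMA3G were listed at 0.

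The semaphorins of classes 4 to 7 are membrane-bound. SEMA6B (chr19:4542593-4559684), a ligand of A-type plexins, was at 3.24 and 0.867 per-million units, a log2 ratio of 1.18, the highest of the 69 genes. Of all genes passing the filter, at any level, 1.29% had a log2 ratio at least as high. The share at least 1.5-fold higher was 14.2% among genes with mean levels of 2 to 4 per-million units, the range of SEMA6B. Its relative SEMA6A was at 1.86 and 2.30, a log2 ratio of -0.21, whereas SEMA6C, the most abundant of class 6, was at 37.1 and 35.5. The 3 class 6 genes that passed thus had ratios above, below and near 0, and SEMA6D was listed at 0. SEMA4C, a ligand of PLXNB2, was at 42.2 and 36.6, a log2 ratio of 0.20. SEMA4D, a ligand of PLXNB1, was at 13.5 and 13.1, SEMA4G at 6.68 and 5.73, SEMA4B at 5.51 and 5.11, and SEMA4F at 3.63 and 2.92. All 5 of these class 4 genes had small positive log2 ratios, between 0.04 and 0.24. SEMA5B was level at 11.0 in both libraries, SEMA5A was listed at 0, and SEMA4A (0.491 and 0.781) and SEMA7A (0.112 and listed at 0) stayed under the filter.

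The plexins, the semaphorin receptors, summed to 247 and 249 per-million units. That was the highest sum of any family when A and B classes of Eph receptors and ephrins were counted apart. With these classes joined, ephrins (275) and Eph receptors (251) summed higher than plexins in the SCC library alone. The plexins showed the narrowest range of log2 ratios among families with more than 2 genes past the filter, from -0.11 to 0.22. PLXNB2 was at 119 and 128 per-million units, a log2 ratio of -0.11. PLXNA3 was at 64.9 and 57.2, a log2 ratio of 0.18. PLXNA1 (26.2 and 27.8), PLXND1 (25.4 and 25.1), PLXNB1 (10.1 and 9.11) and PLXNB3 (1.48 and 1.14) completed the expressed set. PLXNA2, PLXNA4 and PLXNC1 were listed at 0. Of the co-receptors, NRP1, which binds SEMA3A, was at 9.22 and 6.90, a log2 ratio of 0.37, while NRP2, the preferred co-receptor of SEMA3F, was listed at 0. The ligand SEMA3F was thus present without a level for NRP2, and SEMA3A and NRP1 were both higher in the SCC library.

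Of the Robo and Slit genes, 3 passed the filter and 1, ROBO2, was past 1.5-fold. ROBO2 (chr3:75906675-77649964) was at 13.7 and 8.74 per-million units, a log2 ratio of 0.60, just past 1.5-fold. ROBO2 was under 1.5-fold when the median log2 ratio of all genes was set to 0, at 0.56, and when the trend of ratio with level was removed, at 0.50. ROBO1, its neighbour (chr3:78597239-79767998), was more abundant at 30.9 and 27.1 and had a log2 ratio of 0.18. ROBO1 also overlaps the annotated long non-coding gene LOC101927374, which was at 63.7 and 48.7, so that reads of the 2 genes may not be fully separated. SLIT2, a secreted ligand of both receptors, was at 13.6 and 10.3, a log2 ratio of 0.37. ROBO1, ROBO2 and SLIT2 each had a log2 ratio above 0. ROBO3 was at 0.375 and listed at 0, under the filter, and ROBO4, SLIT1 and SLIT3 were listed at 0 in both libraries.

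In the netrin system the 2 kinds of receptor had ratios of opposite sign. DCC (chr18:52340197-53535899) was at 23.0 and 15.9 per-million units, a log2 ratio of 0.50, under 1.5-fold. UNC5B (chr10:71212570-71302864) was the more abundant at 50.8 and 57.4, a log2 ratio of -0.17. Together DCC and the UNC5 receptors summed to 73.8 and 73.4 per-million units, and UNC5B took 68.8% of that sum in the SCC and 78.3% in the non-SCC library. UNC5A, UNC5C and UNC5D were listed at 0. Of the ligands, NTN1, the classical partner of DCC, was listed at 0, as was NTN5. NTN4, which also binds laminins, was at 28.2 and 26.9, a log2 ratio of 0.06. NTN3 was at 10.1 and 7.41, a log2 ratio of 0.40. NEO1, the DCC relative neogenin and not among the 69 genes, was at 42.4 and 31.5, a log2 ratio of 0.42.

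**Figure D4:**
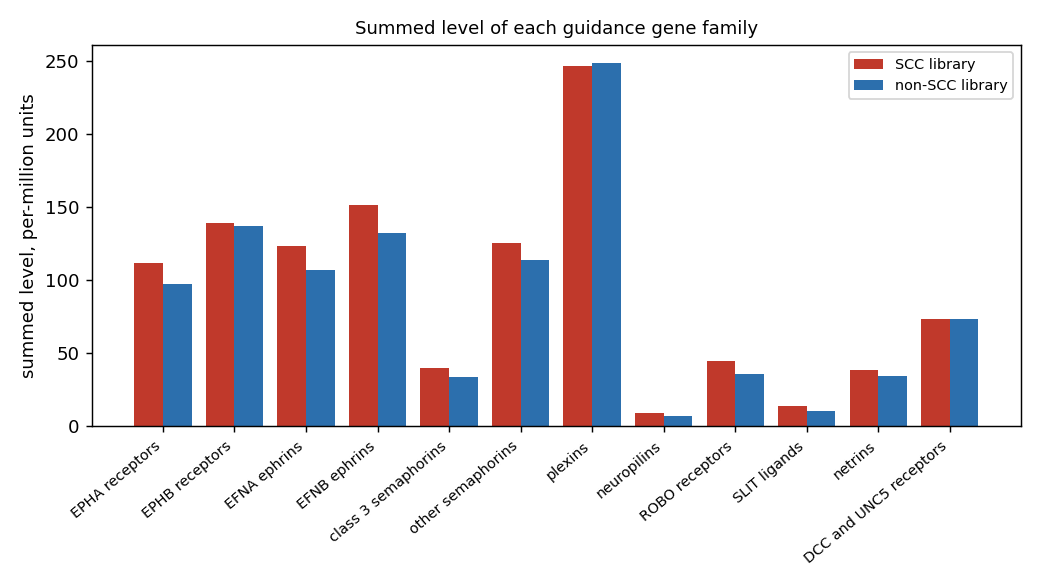
Summed level of each family in per-million units, with 1 bar per library and the axis starting at 0. Plexins (247 and 249), EPHB receptors (139 and 137) and DCC with the UNC5 receptors (73.8 and 73.4) are nearly equal in the libraries, and the bars of the SCC library are higher for the other 9 families.

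Ligands and receptors were compared as groups. The 35 ligands summed to 492 and 432 per-million units in the SCC and non-SCC libraries, and the 34 receptors to 626 and 600. Among the 22 ligands past the filter, 17 had a log2 ratio above 0, and among the 19 receptors past it, 14 did. The median log2 ratios were 0.11 and 0.18.

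The 22 guidance genes listed at 0 in both libraries were 31.9% of the set, beside 34.6% of all protein-coding genes. An exact 0 in these tables may not mean absent RNA, as all 13 protein-coding genes of mitochondrial DNA were listed at 0 as well. Why any gene was listed at 0 was not tested. Start windows of guidance genes at 0 were set beside those of all protein-coding genes listed at 0, as a description with no test. The measure is the CpG count over the count expected from the C and G content, where values above 0.6 are usual for CpG islands. Of the 19 guidance genes at 0 with a window, 13 were above 0.6, with a median of 0.81, and of the 34 past the filter 25 were, with a median of 0.72. Among all protein-coding genes listed at 0 the median was 0.35, and 32.9% were above 0.6. Among protein-coding genes past the filter the median was 0.85, and 84.5% were above 0.6. The guidance genes listed at 0 included CpG-rich starts such as those of EFNB2 (1.06), EPHA8 (1.01) and PLXNA4 (0.97), and CpG-poor ones such as those of EPHB6 (0.17) and SEMA3G (0.27). Like that of ROBO2, the windows of PLXNA4, EPHB6 and some other guidance genes, such as PLXNC1 and EFNA2, belong to starts inside the annotated gene.

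**Figure D5:**
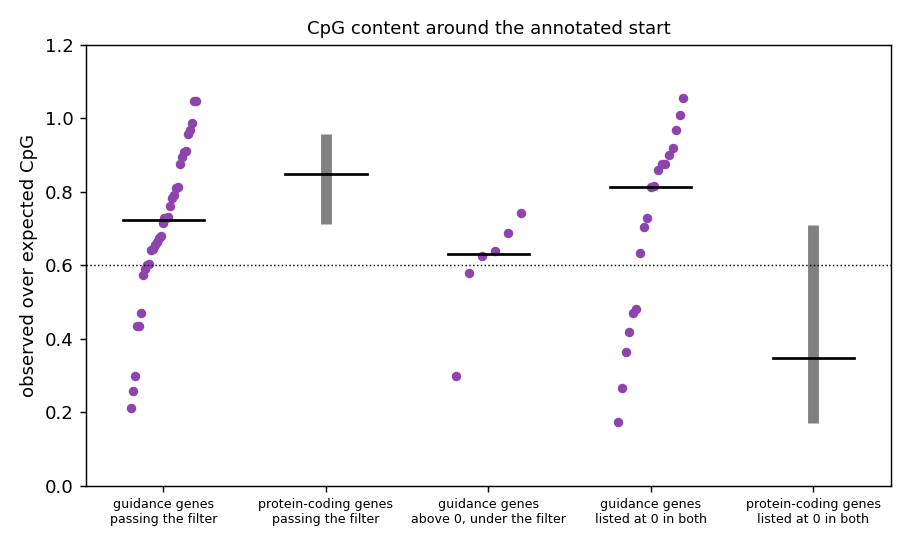
Observed over expected CpG in the 300 bases around the annotated start, with 1 point per guidance gene and a black bar at each median; for protein-coding genes the grey bar spans the interquartile range, and the dotted line marks 0.6. The median of guidance genes listed at 0 in both libraries, 0.81, lies above that of all protein-coding genes listed at 0, 0.35.

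Other genes of the pathway, 87 in 6 lists drawn from general knowledge, were set beside the receptors and ligands. Of these, 72 passed the level filter, 49 of them with a log2 ratio above 0, and their median log2 ratio was 0.07. Past 1.5-fold upward were 3, or 4.17%, beside 5.38% of all genes passing the filter, and none was past it downward, beside 1.41%. All 3 belong to the list of adhesion and myelin-related guidance genes. The adhesion molecule L1CAM was at 16.3 and 9.33 per-million units, a log2 ratio of 0.75, NRCAM, of the same family, at 2.18 and 0.579, a log2 ratio of 1.01, and FLRT1, of a family of UNC5 ligands, at 6.70 and 3.34, a log2 ratio of 0.83. NRCAM was under the filter in the non-SCC library and passed it only through the library where it was higher. Its mean level was under 2 per-million units, a range where 32.1% of all genes passing the filter were at least 1.5-fold higher. The most abundant gene of the adhesion and myelin-related list, the neurotrophin receptor NGFR, was at 130 and 142. The other lists had no gene past 1.5-fold. For the list of plexin and neuropilin signalling genes the median log2 ratio was 0.00 over 14 genes. Its most abundant gene was DPYSL2, a mediator of semaphorin signals, at 165 and 170. The list of Eph signalling and ephrin shedding genes had a median of 0.04 over 14 genes. Its most abundant gene was the phosphatase PTPN11, at 129 in both libraries. For the list of Robo and Slit signalling genes the median was 0.09 over 10 genes, with the kinase ABL1 at 135 and 129 in the lead. For the list of netrin receptor partners, which holds receptors and ligands as well as signalling genes, it was 0.12 over 9, with the unconventional myosin MYO10 at 151 and 139.

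All 11 markers of Ewing sarcoma passed the filter in the libraries, among them CD99 and NKX2-2, with a median log2 ratio of -0.08. All 6 endothelial markers were listed at 0, as were 5 of 6 Schwann cell and glial markers, 4 of 6 blood markers, including PTPRC, and 4 of 5 epithelial markers. Markers of fibroblasts and pericytes moved in the same direction as most guidance genes. All 7 past the filter were higher in the SCC library, beside 56.2% of all genes passing it. By at least 1.5-fold, 2 of them were higher, beside 5.38% of all genes. The list of 9 summed to 147 and 122 per-million units. PDGFRA was listed at 0 in both libraries. Of 10 neuronal markers, 7 passed. A ratio above 0 was found for 5 of these (71.4%, beside 56.2% of all genes), and a ratio below 0 for 2, TUBB3 and NEFM. The most abundant was TUBB3, at 128 and 132, a log2 ratio of -0.04. STMN2 had the highest log2 ratio, 0.97, at 9.40 and 4.33. RBFOX3, MAP2 and NEFL were listed at 0, and the neuronal list summed to 224 and 206. Both libraries come from a cell line, and the relation of these markers to the guidance gene ratios was not tested.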

How the data were processed

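RNA libraries were made with a stranded kit that selects polyadenylated RNA, per the labels' protocols, and hg38 is the build named in the submitters' processing notes. What was used for alignment, quantification and annotation is not given in the sources used here. Read depth is unknown. The deposited values, called normalized per the file headers, were read as log2(x + 1) from the numbers themselves: none was negative, and the back-transformed libraries summed to 983638 and 984120. The unit is not stated. Levels did not grow with transcript length (GENCODE 29 lengths), since the longest quintile of 11667 protein-coding genes had medians of 19.1 and 17.8 and the shortest 36.1 and 38.1, so levels of different genes were set side by side as levels per length. Of 53826 lines, the 174 sharing a gene ID were summed by gene. Members were matched by symbol, and class and coordinates came from RefSeq (GRCh38.p14), where 51252 genes matched. The filter was 1 per-million unit in either library, the pseudocount 1 and the threshold 1.5-fold, with Python 3.11.15 and pandas 2.3.3. No p-value was computed. The counting step was tested on simulated data. Changed genes were placed there only at levels above those of EPHB1, EPHB2 and SEMA6B, so changes in genes that low were not covered. All members past the filter are named with both values. Members and lists were chosen with earlier results of these data known. Some items of the lists are not reported here.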

Additional observations from a re-analysis of the deposited data

How the results depend on the processing

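Counts of guidance genes at least 1.5-fold apart depended on the filter, the pseudocount and the threshold. With a minimum of 5 per-million units 1 gene, ROBO2, was higher and 0 were lower, since EPHB1, EPHB2 and SEMA6B lie below that level. The shares of all genes passing that minimum were 2.29% higher and 0.628% lower. With a pseudocount of 0.1 there were 5 higher, SEMA3A and EPHA5 being added, beside 7.57% of all genes passing the filter. At a threshold of 0.32 on the log2 scale there were 12, beside 13.5%. ROBO2 lost its call when ratios were centred on the median gene and with the level trend removed, which left 2 higher. The shares of all genes higher at those settings were 4.77% and 3.28%. With the trend removed 26 of the 41 genes had a ratio above 0, in place of 31, and their median log2 ratio was 0.08. The median was between 0.08 and 0.17 over all alternatives run, which also included upper quartile scaling, no filter, a filter on the mean and protein-coding genes alone. The median of all genes compared was between 0 and 0.07 over the same alternatives, and was highest with upper quartile scaling, as was that of the guidance genes. The signs of the EPHB1, EPHB2, SEMA6B and ROBO2 ratios were the same in all 29 values recomputed. Most of these could not have changed sign. A change of filter or gene class leaves the ratio of a gene as it was, and a pseudocount cannot reverse it. Only centring, upper quartile scaling and removal of the trend could have done so. No paired analysis was possible because each group has 1 library. Without counts, the depth behind low genes such as EPHB1 and EPHB2 is unknown.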

Other observations

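Hyphenated symbols, left out of the set, include antisense genes of guidance genes, and 5 of them were above 0. SEMA6A-AS1 was at 0.230 per-million units in the SCC and 1.86 in the non-SCC library, a log2 ratio of -1.22, beside a log2 ratio of -0.21 for SEMA6A. SEMA3F-AS1 was at 2.84 and 1.91, SEMA3B-AS1 at 1.55 and 1.02, UNC5B-AS1 at 0.641 and 0.237, and EPHA5-AS1 at 0.751 and listed at 0, all higher in the SCC library. The library kit keeps strand, but whether the counting used it is not given in the sources used here, so reads of these genes and their partners may not be separated. The netrin-G ligands NTNG1 and NTNG2, which are tied to the membrane and bind no DCC, were at 5.12 and 4.08 and at 0.773 and 0.459.

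Some guidance genes are close neighbours in the genome, with ratios that were alike in some cases and not in others. EFNA4, EFNA3 and EFNA1 lie in a row on chromosome 1, with gaps of 9.28 and 40.3 kb (GRCh38.p14), and their log2 ratios were -0.04, 0.48 and 0.10. SEMA3F and SEMA3B, 71.2 kb apart on chromosome 3, had log2 ratios of 0.02 and -0.04, and PLXNB3 and PLXNA3, 679 kb apart on chromosome X, of 0.22 and 0.18. SEMA3A and SEMA3D, 503 kb apart on chromosome 7, had log2 ratios of 0.49 and 0.42, SEMA3D being under the level filter. EPHB2 and SEMA3A have the neighbours EPHA8 and SEMA3E, which were listed at 0 in both libraries and have no ratio. Of the guidance genes past the level filter, 4 overlap an expressed protein-coding gene. PLXNA3 overlaps LAGE3 (89.2 and 112 per-million units), SEMA4D overlaps SECISBP2 (118 and 124), SEMA4G overlaps MRPL43 (36.2 and 41.8) and EPHB4 overlaps SLC12A9 (23.4 and 23.7), and how reads in these overlaps were assigned is not given in the sources used here.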
